A study of Mus musculus with 31 samples.

Results

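The cytosolic ribosomal protein genes encode the proteins of the ribosome outside mitochondria, and here they were taken by symbol. Every symbol of the deposited count table made of Rpl or Rps, a number and at most 1 further letter (a, l, x or y), together with Rplp0, Rplp1 and Rplp2, was a member. This gave 81 of 25239 symbols, 50 of the large and 31 of the small subunit. Rpsa and Fau are examples of ribosomal protein genes that the symbol rule misses, and such genes are given below as a list.

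RNA was sequenced from hepatocyte and hepatic stellate cell preparations of single livers from male and female C57BL/6J mice, an inbred strain with no transgene or deletion named in the labels. The mice had eaten standard chow or a diet rich in fructose, palmitate and cholesterol (FPC, a model of fatty liver disease with inflammation) for 16 weeks. The labels used here state no ages. After enzyme digestion, slow centrifugation pelleted the hepatocytes, and a Nycodenz gradient served to collect the stellate cells. Each cell type had 4 groups of 4 libraries (female chow, female FPC, male chow, male FPC), except that female chow stellate cells had 3, numbered 1, 2 and 4. Per the series design, each library of a group is an independent mouse.

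A ribosome joins a small subunit, which reads the messenger RNA, to a large subunit, which forms the peptide bond, and nearly all of its proteins are needed in equal numbers. Their messages are short, abundant and built around a shared start, a run of pyrimidines called the TOP motif, through which the mTOR kinase and the protein Larp1 hold back or release their translation. RNA counts show how much message is present and say nothing of how much of it is translated. Hepatocytes are heavy makers of secreted protein, while stellate cells store retinol and make matrix once activated.

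RefSeq gave at least 1 promoter window (GRCm38.p6, 250 bases before to 50 after the start) for 60 of the 81 members. The windows from 100 bases before to 20 after the start of Rps12, Rps23, Rpl41 and Rps26 are shown as examples, since each of these genes was among the 3 members of smallest p in at least 1 comparison below. Capitals mark the letters CCGGAAG or CTTCCGG (the core that ETS factors bind), and a C followed by at least 5 pyrimidines near the start.
Rps12: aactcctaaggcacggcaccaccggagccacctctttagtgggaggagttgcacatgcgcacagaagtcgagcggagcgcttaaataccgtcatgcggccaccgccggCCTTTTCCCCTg
Rps23: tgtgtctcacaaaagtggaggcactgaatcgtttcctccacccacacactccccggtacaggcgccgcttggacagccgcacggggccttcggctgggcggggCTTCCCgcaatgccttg
Rpl41: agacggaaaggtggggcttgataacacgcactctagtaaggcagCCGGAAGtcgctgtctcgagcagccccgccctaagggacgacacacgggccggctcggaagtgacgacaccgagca
Rps26: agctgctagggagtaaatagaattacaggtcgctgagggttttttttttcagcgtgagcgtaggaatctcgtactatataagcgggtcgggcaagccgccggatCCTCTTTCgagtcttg
Rps12 lies on the minus strand at chr10:23787190-23787309 and Rps23 on the plus strand at chr13:90923022-90923141. Rpl41 (chr10:128549149-128549268) and Rps26 (chr10:128626487-128626606) are both on the minus strand. The pyrimidine run, read on the gene's own strand from 10 bases before to 20 bases after the start, was in 38 of the members' 72 windows (52.8%) and in 22.0% of all 32851 windows. CCGGAAG on either strand was in 34.7% of the members' windows and in 8.86% of all, and AAGATGGC, a letter run that YY1 binds, in 9.72% and 2.75%. TATAAA was in 9.72% of the members' windows and in 13.6% of all, and no overlap between the motifs was removed. A match in letters is not a bound site.

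All 81 members matched the GENCODE M21 annotation of GRCm38. Their annotated transcripts had a median of 835 bases, against 2360 bases for the other matched symbols, and 54 members were under 1000 bases. Median GC content was 51.8% against 49.1%. The shortest were Rps27 (345 bases), Rpl36 (383 bases) and Rps29 (390 bases). The longest annotated models were Rps15a (5179 bases), Rps20 (3706 bases) and Rpl18 (2989 bases), but their coding parts were only 390, 357 and 564 bases.

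Levels per length were compared as CPM per kb, the count scaled to library size (CPM, with TMM-scaled sizes) per 1000 bases of transcript. Rplp1, a protein of the stalk that recruits elongation factors, had the highest mean of all members in 6 of the 8 groups, at 2340 ± 863 CPM per kb in female chow hepatocyte libraries (SD, n = 4) and 4590 ± 1030 CPM per kb in female chow stellate cell libraries (SD, n = 3). Its neighbours in the order lay within the spread, with Rps15 at 2330 ± 788 CPM per kb in the first of these groups (SD, n = 4) and Rps29 at 4510 ± 938 CPM per kb in the second (SD, n = 3). Rps29, a small zinc-binding protein of the small subunit, had the highest mean in the male stellate cell groups, at 2530 ± 352 against 2090 ± 107 CPM per kb on chow and 2440 ± 562 against 2160 ± 517 CPM per kb on FPC (SD, n = 4 each).

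7 members had few counts over all 31 libraries, 6 to 4202 in total. Rpl10l and Rpl39l, paralogs known from testis, and Rpl3l, known from muscle, had 6, 166 and 280 counts, while their parents Rpl10, Rpl39 and Rpl3 were among the abundant members. Rpl26, Rps27, Rpl30 and Rpl34 encode core ribosomal proteins and yet had 8, 1323, 2446 and 4202 counts. Each of these 4 shares 50-base stretches with a near-copy in the table that itself held 0 or 1 counts. For Rps27 and the retrogene Rps27rt this covers 98.6% of the stretches of Rps27. The first 60 coding bases show how alike they are, and the paralog Rps27l is given beside them, with capitals where it differs from Rps27.
Rps27: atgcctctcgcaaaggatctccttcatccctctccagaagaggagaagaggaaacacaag
Rps27rt: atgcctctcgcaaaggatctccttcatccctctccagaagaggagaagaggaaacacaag
Rps27l: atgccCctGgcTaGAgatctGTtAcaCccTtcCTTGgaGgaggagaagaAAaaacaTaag
These come from GENCODE models of GRCm38, at chr3:90213248-90213615 on the minus strand for Rps27 and chr9:114982648-114982707 on the minus strand for Rps27rt. Rps27l is at chr9:66946175-66946884 on the plus strand, and the stretches of Rps27 and Rps27l span introns. Rps27rt has the same base as Rps27 at all 252 coding positions and Rps27l at 192 of 252. Reads over stretches that Rps27 and Rps27rt share cannot be told apart. The near-copy covers less of the other 3, at 51.9% of the stretches of Rpl26, 29.7% of Rpl30 and 37.9% of Rpl34, and the cause of their low counts was not tested.

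Other members share sequence with copies that did hold counts, and their values are uncertain for this reason. Rps6, the substrate of S6 kinase, shares 84.6% of its 50-base stretches with Rps6-ps4, which held 420705 counts beside 591793 for Rps6. Rps23, which lines the decoding centre, shares 42.6% with Gm5148, with 315753 counts beside 485606. Of the 81 members, 40 shared more than 50% of their stretches with some other annotated gene. Rps4l and Rpl32l are annotated as pseudogenes. Members share up to 66.2% of their exon bases with other annotated genes on either strand. Among members named below, Rpl24 shares 47.0% with Gm28037, Rpl5 26.7% with Fam69a and Snord21, and Rps12 13.7% with small RNA genes. No source used here states whether the counting used strand.

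The libraries held 3442266 to 40258392 counts. Members took 3.49% to 7.94% of the counts of 15 hepatocyte libraries and 0.134% of the male FPC library 4. In that library Rn45s, a ribosomal RNA precursor, took 84.3% and Lars2 10.2%, and with these genes and Mir6236 set aside the members' share was 2.64%. The libraries labelled stellate cell held shares of 4.96% to 11.9%. Their labels were checked against markers, given as means of log2(CPM + 1). Quiescent stellate cell markers averaged 2.93 to 5.36 per library (median 3.44), lower than the 3.72 to 6.26 of the hepatocyte libraries, and Lrat, the enzyme that stores retinol in stellate cells, had a median of 8.97 CPM against 25.6 CPM. Kupffer cell markers averaged 7.0 to 9.74, and B and plasma cell markers 7.56 to 9.50 in the same libraries. The data go against the label, and "stellate cell libraries" below means the libraries labelled so. Hepatocyte markers averaged 7.45 to 11.2 in the hepatocyte libraries, beside Kupffer cell markers at 6.42 to 9.48. In such mixtures fewer cells of a type and less RNA per cell cannot be told apart.

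The mean level of the members, as the mean of log2(CPM + 1) over the members that passed the filter on low counts (77 in hepatocyte and 79 in stellate cell libraries), gives 1 number per library. In hepatocyte libraries of chow-fed females it was 8.16, 8.40, 8.96 and 8.55. FPC-fed females were at 9.09, 9.24, 8.12 and 9.19. Chow-fed males were at 8.75, 8.92, 8.20 and 8.36, and FPC-fed males at 8.07, 8.48, 8.04 and 7.66. 3 of the 4 FPC female libraries were above all other hepatocyte libraries, while the FPC male libraries overlapped the chow males. In stellate cell libraries the female chow values were 9.88, 9.95 and 9.27, and the female FPC values 9.35, 8.63, 8.70 and 9.54. Male libraries lay between 8.57 and 9.03 on either diet. Female chow libraries 1 and 2 were above all others, and every female chow library was above every male one.

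**Figure D1:**
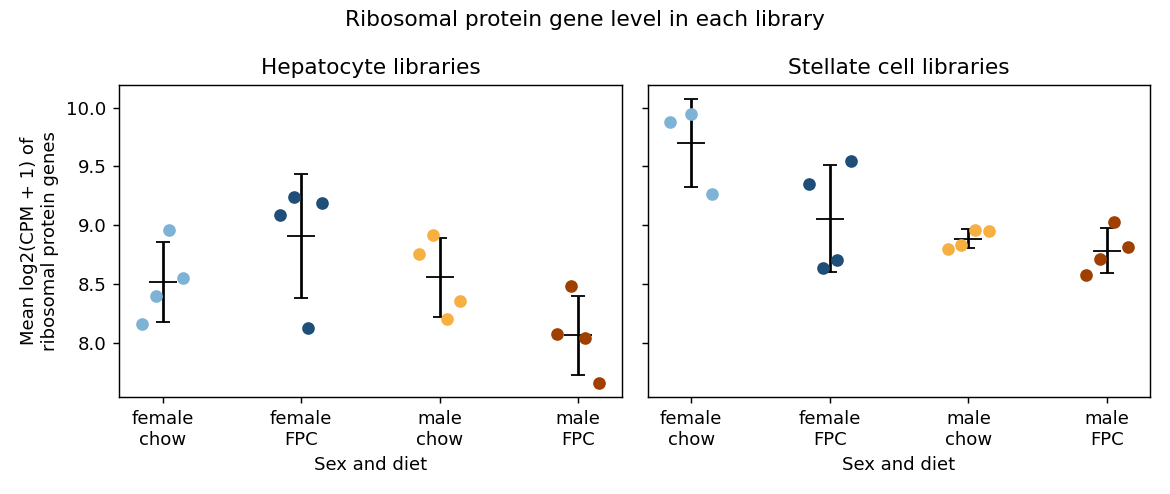
Mean log2(CPM + 1) of the 77 (hepatocyte) or 79 (stellate cell) ribosomal protein genes tested (vertical axis) in each library (points), by sex and diet, for hepatocyte libraries (left) and stellate cell libraries (right), with the group mean and SD as bars. FPC female hepatocyte library 3 is at 8.12, below the other 3 at 9.09 to 9.24, and female chow stellate cell libraries 1 and 2 are the highest at 9.88 and 9.95.

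Libraries also differed in how the level of all other genes depended on transcript length, measured as Spearman's rho across genes between transcript length and the deviation of a library's level from the mean over libraries. A negative rho means that short transcripts were relatively high. In stellate cell libraries rho ran from -0.42 and -0.35 in female chow libraries 2 and 1 to 0.35 in male FPC library 1. In hepatocyte libraries it ran from -0.31 in male chow library 2 to 0.29 in male FPC library 1, and it was positive in all 4 male FPC libraries (0.16 to 0.29).

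The members' mean level was higher where short transcripts of other genes were higher. Across the 15 stellate cell libraries Pearson's r between rho and the members' level was -0.97 (permutation p = 1e-05, the smallest that 100000 resamples can give; adjusted 4e-05 over 4 relations) and Spearman's rho -0.94 (permutation p = 1e-05, likewise). Without the 2 libraries with the most extreme length trend r was -0.93, and on deviations from group means it was -0.94. Across the 16 hepatocyte libraries r was -0.74 (two-sided permutation p = 0.0014, adjusted 0.0019), Spearman's rho -0.72 (p = 0.0026, adjusted 0.0034), r without the 2 extremes -0.69 and r on deviations from group means -0.78. The corresponding trend with GC content gave r = 0.91 in stellate cell libraries (p = 2e-05, adjusted 4e-05) and 0.55 in hepatocyte libraries (p = 0.03, adjusted 0.03). Its Spearman's rho was 0.83 (p = 0.00023, adjusted 0.00046) and 0.57 (p = 0.025, adjusted 0.025). Without the 2 libraries of most extreme GC trend r was 0.91 in stellate cell libraries and 0.35 in hepatocyte libraries. With male FPC library 4 left out, r in hepatocyte libraries was 0.67 (n = 15), 0.53 without the 2 extremes of that set and 0.73 on deviations from group means. Both measures come from the same libraries. FPC female hepatocyte library 1 stood off the line, with a high member level (9.09) at a positive rho of 0.12.

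**Figure D2:**
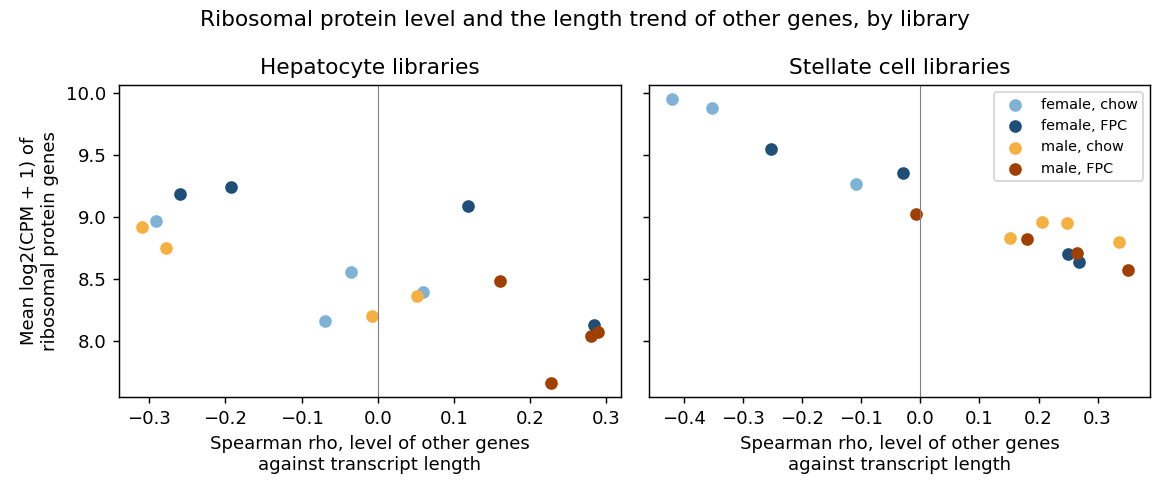
Mean log2(CPM + 1) of the ribosomal protein genes (vertical axis) against Spearman's rho of the other genes' level with transcript length (horizontal axis), 1 point per library, coloured by sex and diet, hepatocyte libraries left and stellate cell libraries right. In the stellate cell libraries the points fall from 9.95 at a rho of -0.42 to 8.57 at 0.35.

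The members did not all move together between mice of a group. In hepatocyte libraries the median Pearson correlation of 2 members' deviations from group means was 0.66 over 2926 pairs, and 91.9% of pairs were above 0 (n = 16 libraries, which all members share). Rps23 and Rplp0, the stalk's base, went opposite ways with r = -0.43. Most like Rps23 were Rpl5 (r = 0.96), Rpl35a (0.94) and Rpl31 (0.92), while those like Rplp0 included Rpl10a (0.99) and Rplp2 (0.95). Members of higher GC content were more like Rplp0 than like Rps23, with a Spearman's rho of -0.47 across the 77 members between GC content and the difference in likeness. Without male FPC library 4 Rps23 and Rplp0 still had r = -0.46. In stellate cell libraries the median was higher, at 0.86, and Rps23 and Rplp0 were positively related (r = 0.63, n = 15).

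Female mice on the FPC diet had somewhat higher ribosomal protein messages in hepatocyte libraries than female mice on chow, but no member passed the test. Of the 81 members, 77 passed the filter on low counts, and edgeR's quasi-likelihood test called 0 of them at an adjusted p of 0.05, where 0.249% of all 14430 genes were called. DESeq2 also called 0 (4.43% of all genes). At an unadjusted p under 0.05, 14 members were higher (background 8.57%) and 1 lower (background 7.67%), and 72 of 77 had a positive log2 fold change (57.7% of all genes). The members' median log2 fold change was 0.42 beside 0.12 for all genes.

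Rpl23, a protein of the subunit interface, had the smallest p. It was at 230, 441, 263 and 389 CPM in female chow libraries and 921, 624, 508 and 497 CPM in female FPC libraries, 331 ± 100 against 638 ± 198 CPM (SD, n = 4 each). All 4 FPC libraries were above all 4 chow libraries, with a log2 fold change of 0.95 ± 0.33 (SE) and an adjusted p of 0.18 in edgeR. Rpl36a, which contacts the tRNA exit site and is X-linked, gave 0.92 ± 0.34 (adjusted p = 0.20), and Rps27a, made as a fusion with ubiquitin, 1.05 ± 0.39 (adjusted p = 0.20). These were the 3 members whose libraries did not overlap in this direction (background 2.13%), and Rpl34, from few counts, was lower without overlap (background 3.44%). The stalk proteins were at 0.20 ± 0.45 for Rplp0, 0.15 ± 0.39 for Rplp1 and 0.52 ± 0.46 for Rplp2. Rpl5 and Rpl11, which carry 5S RNA into the ribosome and bind Mdm2, were at 0.91 ± 0.43 and 0.29 ± 0.32, and Rps6 at 0.61 ± 0.38.

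The members' direction was not that of other genes of like length in the class that held most members. From 500 to under 1000 bases the 824 other genes had a median of -0.079 beside 0.42 for the 41 members, while under 500 bases other genes were at 0.42 and members at 0.37. With offsets for GC content and transcript length fitted on the other genes the members' median was 0.48. In every length class the members' median was positive, up to 0.65 for Rps15a, the only member of 4000 bases and more. FPC female library 3 went against the rest, and without it the median was 0.63 and 25 members were higher at an unadjusted p under 0.05 (8.16% of all genes). Without FPC female library 1 that count was 0 (5.6% of all genes), with a median of 0.40. Of the neutrophil markers 10 of 10 were higher, with a median of 2.84 (0 called by edgeR and 7 by DESeq2), at list means of 3.91 to 7.75 in FPC and 4.08 to 5.46 in chow libraries. B and plasma cell markers had a median of 1.20 (6 of 7 higher), and Kupffer cell markers one of -1.48 (1 called lower by edgeR and 11 by DESeq2). Hepatocyte markers were lower as well, at list means of 7.50 to 8.82 (median 8.46) in FPC and 8.49 to 10.1 (median 9.71) in chow libraries. The part of these cells in the members' values was not tested.

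Male mice gave the opposite direction in hepatocyte libraries. The median log2 fold change of the 77 members between FPC and chow was -0.55 beside 0.076 for all genes, and 12 members were positive (53.4% of all genes). edgeR called 0 members (0.437% of all genes were called) and DESeq2 called 2 lower, Rps27l and Rpl34 (4.87% of all genes). At an unadjusted p under 0.05, 0 members were higher (background 11.2%) and 16 lower (background 13.5%).

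Rps27l, the p53-responsive paralog of Rps27, was at 126, 162, 98.5 and 72.4 CPM in male chow and 52.6, 59.5, 48.4 and 41.3 CPM in male FPC libraries. No FPC library reached a chow library, and the log2 fold change was -1.18 ± 0.35 (adjusted p = 0.095 in edgeR). With offsets it was -1.16. Rpl34 had few counts (above), with means of 9.75 ± 4.02 CPM in chow and 4.44 ± 0.518 CPM in FPC libraries, with -1.14 ± 0.36 (adjusted p = 0.10) and -0.45 with offsets. Rpl41, the smallest ribosomal protein, was at 639, 1106, 838 and 737 CPM on chow and 343, 543, 365 and 373 CPM on FPC, with -1.03 ± 0.37 (adjusted p = 0.12) and -0.44 with offsets. Every FPC library of Rpl41 was below every chow library, as for 17 of 77 members (background 11.1%).

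The stalk was at -0.89 ± 0.45 for Rplp0, -0.86 ± 0.39 for Rplp1 and -1.0 ± 0.46 for Rplp2. Rpl5 was positive at 0.56 ± 0.43, and Rps27a at 0.32 ± 0.39. Rpl11 and Rps6 were at -0.24 ± 0.32 and -0.10 ± 0.38, and both turned positive with offsets, at 0.38 and 0.34. None of these passed the test.

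Values by transcript length, and those of 1 library with a high Rn45s share, stand beside the male diet effect. Other genes of 500 to under 1000 bases had a median of -0.48 and those of 4000 bases and more 0.41. The members ran from -0.78 under 500 bases to -0.31 at 1000 to under 2000 bases. From 2000 to under 4000 bases the 4 members had a median of -0.254 beside 0.051 for other genes. The 1 member of 4000 bases and more was at -0.375. With the GC and length offsets the members' median was -0.096, and 32 of 77 were positive (53.9% of all genes). FPC male library 4, with its high Rn45s share, had the lowest member level. Without it the median was -0.38 and 8 members were lower at an unadjusted p under 0.05 (16.8% of all genes). Rn45s took 0.245% to 0.391% of the counts in the other male FPC libraries and 0.694% to 2.53% in male chow libraries. Of 14 hepatocyte markers 13 were lower, with a median of -1.86 (1 called by edgeR and 6 by DESeq2). Their list means were 7.45 to 10.3 (median 7.88) in FPC and 10.3 to 11.2 in chow libraries. FPC male library 4 had the highest FPC mean, at 10.31, within the chow range. The 10 genes of the recruited macrophage list (monocyte-derived and lipid-associated types) were all higher, with a median of 1.30 (2 called by edgeR and 6 by DESeq2). The part of these cells in the members' values was not tested.

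On chow no difference between males and females was called in hepatocyte libraries. edgeR called 0 of 77 members (0.43% of all genes) and DESeq2 0 (1.05%), and 0 were past an unadjusted p of 0.05 in either direction (background 2.53% higher, 3.45% lower). The members' median male minus female log2 difference was 0.010 beside -0.013 for all genes, with 39 of 77 members positive (48.5% of all genes). The smallest p-values were those of the pseudogene Rps4l (1.23 ± 0.71), Rps27l (0.42 ± 0.35) and Rpl34 (0.40 ± 0.35), all with adjusted p of 0.94 or 1. The X-linked members Rps4x, Rpl10, Rpl39 and Rpl36a lie among the rest, with Rps4x at 0.098 ± 0.39 and Rpl10 at 0.23 ± 0.38.

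On the FPC diet male hepatocyte libraries were lower than female ones in nearly all members. The median male minus female difference was -0.96 beside -0.036 for all genes, with 1 of 77 members positive (47.5% of all genes). edgeR called 0 members (0.333% of all genes), DESeq2 called 3 lower, Rps26, Rpl41 and Rpl37a (0.797% of all genes), and at an unadjusted p under 0.05 there were 56 lower (background 7.7%) and 0 higher (background 3.72%).

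Rps26, which lies at the exit of the messenger RNA channel, was at 475, 621, 192 and 419 CPM in female and 147, 249, 176 and 152 CPM in male libraries. The groups overlapped through female library 3 alone, and the log2 difference was -1.24 ± 0.36 (adjusted p = 0.25 in edgeR) and -1.06 with offsets. In 4 members, Rps27, Rpl37, Rpl23 and Rps12, every male library was below every female one (background 1.16%), and these were named after their values were seen. Rpl41 gave -1.29 ± 0.37 (adjusted p = 0.26) and Rpl37a, a zinc-binding protein of the large subunit, -1.41 ± 0.42 (adjusted p = 0.27). The stalk members were at -1.25 ± 0.45 (Rplp0), -0.99 ± 0.39 (Rplp1) and -1.53 ± 0.47 (Rplp2). Rpl38, known for its part in translating Hox messages, was at -1.27 ± 0.39, Rps19 at -1.15 ± 0.37 and Rps4x at -1.10 ± 0.39. Rpl5, Rpl11 and Rps6 were nearer to 0, at -0.50 ± 0.43, -0.55 ± 0.32 and -0.60 ± 0.38.

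Without female library 3, edgeR called 4 members lower (0.486% of all genes), with a median of -1.12. With the offsets the median was -0.63, and 42 members were lower at an unadjusted p under 0.05 (background 6.56%). Other genes of 500 to under 1000 bases had a median of -0.37 as fitted, beside -1.02 for the members. Neutrophil markers differed by far more, with 10 of 10 lower in males, 5 of them called by edgeR and 7 by DESeq2, a median of -3.70 and list means of 2.11 to 4.00 in males against 3.91 to 7.75 in females. Female FPC library 4 had a neutrophil mean of 3.91, within the range of the males, and a member level of 9.19. The part of neutrophils in the members' values was not tested. Without male FPC library 4 the median was -0.80.

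The difference between the sexes in the diet effect was tested as an interaction. All 77 members had a negative value (48.2% of all genes were positive), with a median of -0.98 beside -0.028 for all genes, but edgeR called 0 members and 0 of all genes (0%), and DESeq2 0 members (0.0139% of all genes). At an unadjusted p under 0.05, 19 members were lower (background 2.56%) and 0 higher (background 1.63%). Rpl38 was at -1.45 ± 0.55, Rpl37a at -1.52 ± 0.58 and Rpl24 at -1.27 ± 0.49, each with an adjusted p of 0.98. The opposite diet directions in females and males are thus not shown to differ for any single member. With the offsets the median was -0.54.

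In stellate cell libraries of females the FPC diet went with lower ribosomal protein messages. All 79 members tested had a negative log2 fold change (51.7% of all 15430 genes were positive), with a median of -0.59 beside 0.020 for all genes. edgeR called 0 members and 0 of all genes (0%). DESeq2 called 13 members lower (0.972% of all genes), and at an unadjusted p under 0.05 edgeR had 39 lower (background 4.99%) and 0 higher (background 5.09%).

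Rps23 was at 1880, 2179 and 1413 CPM in the female chow libraries and 923, 871, 907 and 971 CPM in the female FPC libraries. The groups did not overlap, with a log2 fold change of -0.99 ± 0.18 (adjusted p = 0.20 in edgeR), and its near-copy Gm5148 gave -0.96 ± 0.17. Rps24, mutated in some families with a congenital anaemia, was at 2081, 2575 and 1667 CPM on chow and 1151, 1059, 1136 and 991 CPM on FPC, with -0.96 ± 0.17 (adjusted p = 0.20). Rps27a followed with -0.89 ± 0.21 (adjusted p = 0.28). In 11 of 79 members every FPC library was below every chow library (background 2.48%). The stalk members were closer to 0, at -0.36 ± 0.35 (Rplp0), -0.53 ± 0.29 (Rplp1) and -0.50 ± 0.33 (Rplp2).

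**Figure D3:**
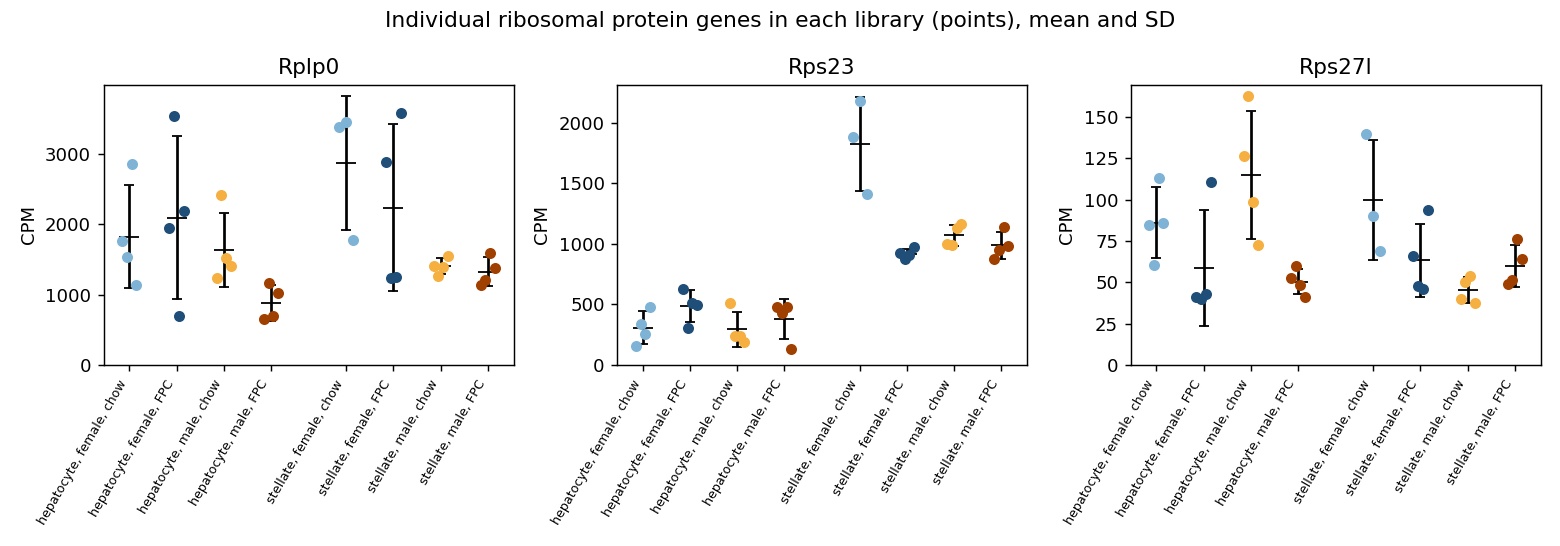
CPM (vertical axis, from 0) of Rplp0, Rps23 and Rps27l in each library (points) by cell type, sex and diet, with the group mean and SD as bars. For Rps23 the 3 female chow stellate cell libraries at 1413 to 2179 CPM are above all other libraries.

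In this comparison the members' medians were close to each other in every length class. They were -0.61 under 500 bases (11 members), -0.58 from 500 (42 members) and also from 1000 bases (21 members). From 2000 to under 4000 bases, with 4 members, the median was -0.68, and the 1 member of 4000 bases and more was at -0.60. Other genes had medians of -0.033, -0.31, -0.16, 0.0084 and 0.30 in the same classes. With the offsets the members' median was -0.31, 28 were lower at an unadjusted p under 0.05 (background 5.12%), and Rps23 and Rps24 were at -0.74 and -0.83. Without chow library 4 edgeR called 5 members lower (0.139% of all genes) and without FPC library 4 it called 17 lower (1.92% of all genes), with medians of -0.82 and -0.81. Neutrophil markers were higher in FPC libraries by a median of 1.95 (10 of 10, with 0 called by edgeR and 1 by DESeq2), at list means of 5.53 to 8.42 against 5.52 to 6.49. Activated stellate cell markers were higher by 2.59 (8 of 8, with 0 called by edgeR and 3 by DESeq2), at list means of 1.64 to 4.13 against 1.30 to 1.69. FPC library 1 was the lowest of its group and within the chow range. These genes had low levels, with medians over the stellate cell libraries from 0.452 CPM (Lox) to 6.82 CPM (Col3a1). Whether neutrophils or activated stellate cells bear on the members was not tested.

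In male stellate cell libraries the median log2 fold change with FPC was -0.095 beside -0.015 for all genes, with 14 of 79 members positive (48.2% of all genes). edgeR called 0 of 79 members and 0 of all genes (0%), DESeq2 called 0 members (0.428% of all genes), and 0 were past an unadjusted p of 0.05 (background 3.93% higher, 1.74% lower). Rps23 was at 1003, 987, 1130 and 1162 CPM on chow and 877, 949, 1141 and 983 CPM on FPC. Of the members with the smallest p, Rps4l was at -1.29 ± 0.60, Rps27 at -0.54 ± 0.28 and Rpl39l at 1.14 ± 0.65, all from few counts, with adjusted p of 0.88 to 0.98. Rplp0, Rplp1 and Rplp2 were at -0.078 ± 0.33, 0.051 ± 0.27 and -0.31 ± 0.31.

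On chow the stellate cell libraries of males were lower than those of females in 78 of 79 members (47.3% of all genes were higher, beside 1 member), with a median of -0.90 beside -0.054 for all genes. edgeR called 0 members (0.0518% of all genes), and its smallest adjusted p was 0.082, for Rps12. DESeq2 called 64 members lower (9.47% of all genes), so the call depends on the tool. At an unadjusted p under 0.05 edgeR had 73 lower (background 16.6%) and 0 higher (background 12.9%), and in 71 members every male library was below every female one (background 18.6%).

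Rps12 was at 2031, 2028 and 1304 CPM in females and 887, 821, 904 and 868 CPM in males, with a log2 difference of -1.04 ± 0.21 (edgeR). With offsets it was -0.35. Rpl41 was at 2255, 1658 and 1045 CPM in females and 613, 667, 744 and 623 CPM in males, with -1.32 ± 0.30 (adjusted p = 0.085) and -0.58 with offsets. Rps23 gave -0.77 ± 0.18 (adjusted p = 0.085) and -0.65 with offsets. Female library 4 was the lowest of the 3 females in each of these, and the groups did not overlap.

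By role, the stalk was at -1.03 ± 0.35 (Rplp0), -1.14 ± 0.29 (Rplp1) and -0.84 ± 0.33 (Rplp2). Rpl11 and Rps6 were at -0.88 ± 0.29 and -0.72 ± 0.26, with Rps6-ps4 at -0.72 ± 0.26, while Rpl5 was at -0.32 ± 0.24. Rpl10, Rps19, Rpl38 and Rps25 lay between -0.97 ± 0.28 and -0.79 ± 0.25. X-linked members did not stand apart, with Rps4x at -0.69 ± 0.24 and Rpl36a at -0.99 ± 0.23. Rps27l was at -1.14 ± 0.29 and stayed at -1.26 with offsets, whereas its parent Rps27, with few counts, was at -0.16 ± 0.30.

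Other genes of 500 to under 1000 bases had a median of -0.59 beside -0.91 for the members, and those of 1000 to under 2000 bases -0.37 beside -0.85. Other genes under 500 bases were at -0.053 beside -0.92, and those of 2000 to under 4000 bases at -0.070 beside -0.90 for 4 members. With offsets for both GC content and length the members' median was -0.33 (35 lower at an unadjusted p under 0.05, background 10.7%), with length alone -0.46 and with GC content alone -0.62 (7 members then called lower by edgeR, with 1.12% of all genes). The members with long annotated models did not follow the length trend, with Rps15a at -0.69 ± 0.25, Rps20 at -0.88 ± 0.24 and Rpl18 at -0.92 ± 0.31. Their offset values of -1.33, -1.83 and -0.54 rest on those annotated lengths. Without female chow library 4 edgeR called 71 members lower (11.6% of all genes). Without female FPC library 4, which is in neither group compared, it called 70 (12% of all genes). Leaving a library out repeats the filter, the scaling and the estimate of the shared spread. Without female FPC library 1 it called 1 (0.156% of all genes), and without female chow library 1 or 2 it called 0, with medians of -0.82 and -0.73.

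Values for other cells and for ribosomal RNA stand beside this comparison. Kupffer cell markers averaged 8.35 to 9.74 per library in chow females and 7.12 to 8.35 in chow males, and 13 of 13 were lower in males, with a median of -1.10 (0 called by edgeR and 2 by DESeq2). B and plasma cell markers averaged 8.68 to 9.50 in females and 8.24 to 8.76 in males, with 1 of 7 positive and a median of -0.49. Rn45s took 0.682% to 0.786% of the counts in chow females and 0.249% to 0.425% in chow males. The part of these in the members' values was not tested.

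**Figure D4:**
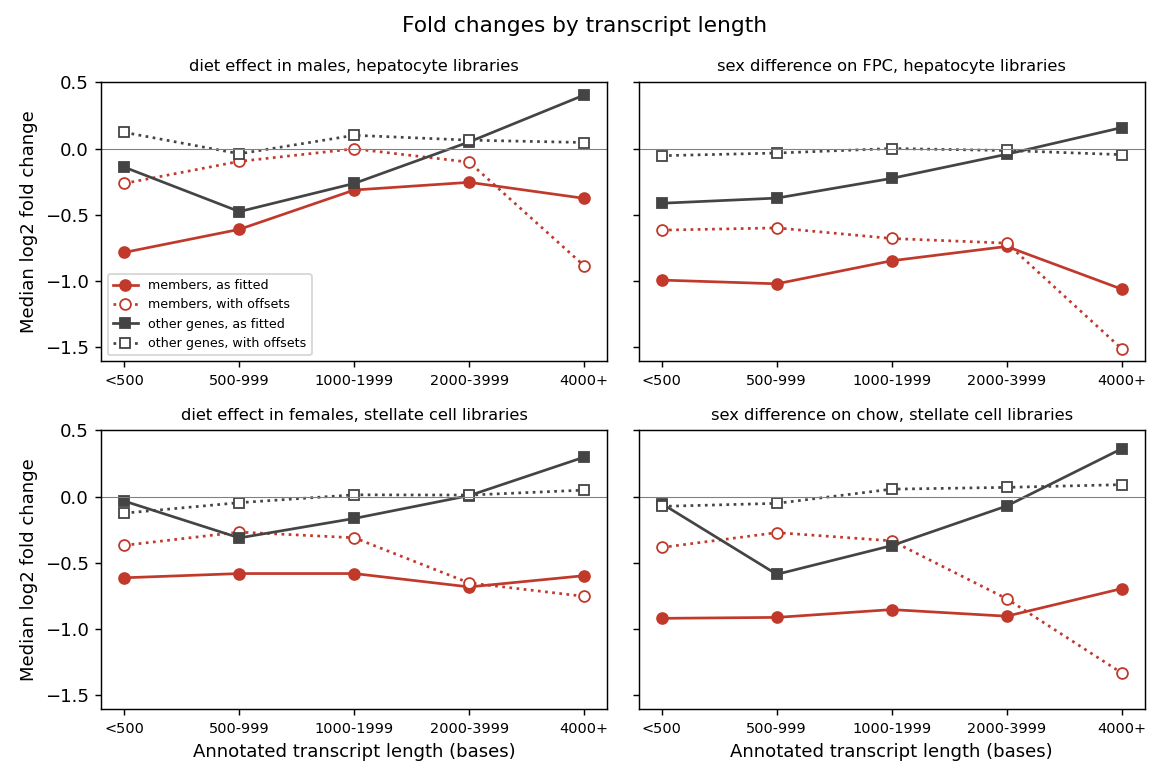
Median log2 fold change (vertical axis) of ribosomal protein genes (red circles) and other genes (dark squares) by annotated transcript length (horizontal axis, bases) in 4 comparisons, as fitted (filled, solid) and with GC content and length offsets (open, dotted). In the sex difference on chow of stellate cell libraries the members stay between -0.92 and -0.69 in every class, while other genes run from -0.59 in the class from 500 bases to 0.36 in the class from 4000 bases.

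On the FPC diet the median sex difference in stellate cell libraries was -0.41 beside -0.015 for all genes, with 10 of 79 members positive (48.9% of all genes). edgeR called 0 members (0.0583% of all genes) and DESeq2 0 (0.94%), and at an unadjusted p under 0.05 there were 8 lower (background 6.67%) and 1 higher (background 3.35%). Rpl39l had the smallest p at 2.39 ± 0.76 (adjusted p = 0.41 in edgeR) from mean levels of 0.579 CPM in males and 0.111 CPM in females, followed by Rpl8 at -0.84 ± 0.34. Rplp0 was at -0.75 ± 0.33. Rps24, named after its values were seen, was the 1 member whose male libraries were all above the female ones (background 2.61%), at 0.21 ± 0.16. Without female FPC library 4 the median was -0.17, and with the offsets -0.15.

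The interaction in stellate cell libraries ran opposite to that in hepatocyte libraries. Of 79 members 77 were positive (48.7% of all genes), with a median of 0.50 beside -0.026 for all genes. edgeR called 0 members and 0 of all genes (0%), DESeq2 called 1, Rps23, higher (0.305% of all genes), and at an unadjusted p under 0.05 there were 13 higher (background 5.05%) and 0 lower (background 3.64%). Rps23 was at 0.87 ± 0.24 and Rps24 at 0.75 ± 0.24, each with an adjusted p of 0.55 in edgeR. Rpl39l was at 3.71 ± 1.01 from a few counts per library. With offsets the median was 0.19. The 2 cell types were fitted apart, and their difference was not tested.

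**Figure D5:**
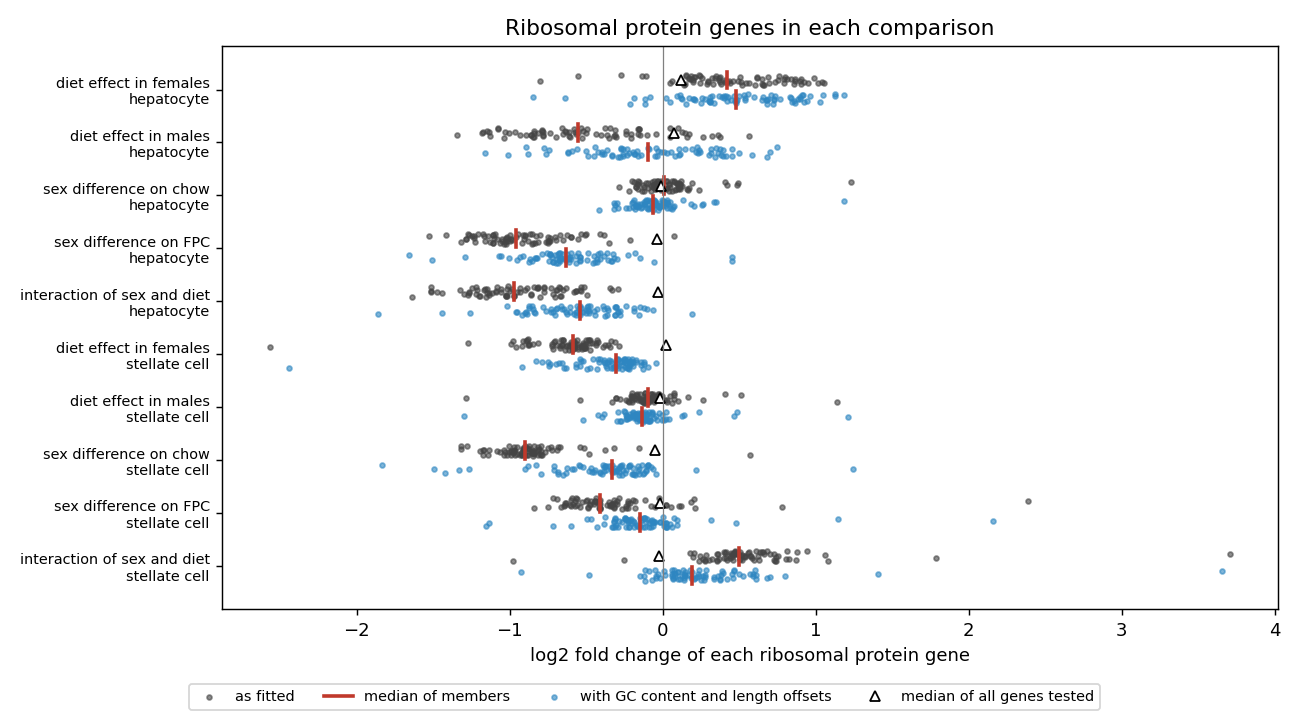
Log2 fold change (horizontal axis) of each ribosomal protein gene in the 10 comparisons (rows), as fitted (grey points) and with GC content and length offsets (blue points), with the members' medians (red bars) and the median of all genes tested (open triangles). The medians as fitted run from -0.98 in the hepatocyte interaction to 0.50 in the stellate cell interaction, and all but that of the female diet effect and the sex difference on chow in hepatocytes and that of the male diet effect in stellate cells lie nearer to 0 with offsets.

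The lists of neighbouring pathways differed between the hepatocyte comparisons. In the diet effect of females the list of other TOP messages (Tpt1, Pabpc1, Naca, Btf3, Nap1l1 and Hnrnpa1) was positive in 6 of 6, with a median of 0.68, and ribosome assembly factors were positive in 28 of 30, with a median of 0.38. Hnrnpa1, an RNA-binding protein, was at 1.41 ± 0.51 and Gar1, of the pseudouridylation complexes, at 0.71 ± 0.28 (adjusted p = 0.19 and 0.24 in edgeR). Respiratory chain subunits, with a median length of 758 bases, were positive in 14 of 75 with a median of -0.29. Mitochondrial ribosomal proteins were at -0.14 and proteasome subunits at -0.067. edgeR called 0 genes of these lists (0.249% of all genes were called), and DESeq2 called 1 respiratory chain subunit lower, where it called 4.43% of all genes in either direction. Whether transcript length or the hepatocyte content of the libraries bears on these lists was not tested.

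In the diet effect of males the short nuclear-encoded lists were lower together. Respiratory chain subunits had a median of -1.17 (2 of 75 positive, 66 lower at an unadjusted p under 0.05, beside 13.5% of all genes), mitochondrial ribosomal proteins -0.87 (1 of 78 positive) and proteasome subunits -0.65 (4 of 38 positive), below the members' -0.55. Atp5g3, a subunit of the ATP synthase ring, was at -1.57 ± 0.36 (adjusted p = 0.064 in edgeR). The ribosomal proteins outside the symbol rule were at -0.63, led by Rpl36al at -1.17 ± 0.33, initiation factors at -0.45 (13 of 35 positive), and the other TOP messages at 0.40 (4 of 6 positive). edgeR called 0 genes of these lists, and DESeq2 called 44 respiratory chain, 20 mitochondrial ribosomal and 6 proteasome genes and 1 of the 7 ribosomal proteins outside the rule lower, beside 4.87% of all genes. With offsets the medians were -0.79, -0.57 and -0.40.

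In the stellate cell libraries the sex difference on chow gave medians of -0.92 for respiratory chain subunits (2 of 74 positive), -0.74 for mitochondrial ribosomal proteins, -0.70 for proteasome subunits and -0.74 for ribosomal proteins outside the rule, beside -0.90 for the members. Initiation factors were at -0.50 (9 of 35 positive) and elongation and termination factors at -0.75. Eif5a, which promotes elongation, was at -1.18 ± 0.33, Eef1b2, which reloads Eef1a with GTP, at -0.91 ± 0.26, and Eif4a2, a helicase of initiation, at 1.65 ± 0.47 (each with an adjusted p of 0.085 in edgeR). Genes that control ribosomal protein translation and transcription were at -0.28, ribosome assembly factors at -0.34 and other TOP messages at -0.41 (2 of 6 positive). edgeR called 0 genes of any of these lists. DESeq2, which called 9.47% of all genes lower, called 67 of 74 respiratory chain subunits, 47 of 78 mitochondrial ribosomal proteins, 23 of 38 proteasome subunits and 5 of 7 ribosomal proteins outside the rule lower. It also called 11 of 35 initiation factors, 5 of 8 elongation and termination factors, 5 of 30 assembly factors, 2 of 6 other TOP messages and 1 of 20 control genes lower, and 1 initiation factor, 2 assembly factors and 1 control gene higher. With offsets the respiratory chain median was -0.37 and the mitochondrial ribosomal one -0.30, beside -0.33 for the members.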

How the data were processed

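The authors deposited 1 table of raw counts per gene symbol and library. The submitters' processing notes name STAR, featureCounts and mm10, without versions, strand setting or annotation. Per the labels' protocols, RNA with a RIN of at least 9 was amplified with NuGEN Ovation kits. The counts carry no molecular identifiers, so amplified copies cannot be told from molecules.

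The ribosomal protein genes and the pathway and marker lists were chosen with earlier results of these data known. A separate fit per cell type used edgeR 4.0.16 under R 4.3.3 (filterByExpr, TMM scaling, quasi-likelihood test, 1 model of 4 groups), two-sided, with Benjamini-Hochberg adjustment over all genes and a threshold of 0.05. The fits kept 14430 of 25239 symbols for hepatocyte and 15430 for stellate cell libraries, whose depths were 3442266 to 30393415 and 9440494 to 40258392 counts. CPM values are TMM-scaled, and SE values come from the fold change and its F statistic. Transcript length and GC content come from GENCODE M21, which matched 24366 symbols. Offsets were splines (5 degrees of freedom) of each library's deviations on GC content and log length, fitted on non-members.

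Named genes followed a rule: called members or, with none called, the 3 with the smallest p, the stalk, members with roles outside bulk structure, paralogs beside parents, the shortest and longest, and up to 3 genes per list. Rps24, Rpl24, Rpl8 and the most alike members follow from p and from likeness, and some genes that the rule names are not reported here. Alternatives were DESeq2 1.42.0 (its size factors, its test), TMM without members, no filter, the offsets, the replicate number as a block, removal of Rn45s, Lars2 and Mir6236, and each library left out. Offsets for length or GC content alone and the offsets with the block were chosen after seeing the data.

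Deviations from group means were correlated to see whether a shared replicate number pairs libraries. All 4 correlations passed 0.1 only between female and male FPC hepatocyte libraries (0.20, 0.43, 0.61 and 0.33). Even there, female library 1 correlated more with a male library of another number, and the series design names no pairs. Python 3.11.15 with pandas 2.3.3, numpy 2.4.6, scipy 1.17.1 and matplotlib 3.10.9 served for the other steps. The scripts were tested on simulated data. All 31 libraries were used.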

Additional observations from a re-analysis of the deposited data

Results flagged for a closer look

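In groups of 4 libraries the highest or lowest value was compared with the others, for the members' mean level, their share of counts and 9 single members. Chance marks about 1 in 20 groups if the values are normally distributed, and 9 of 77 were marked. The measures come from the same libraries and are not independent, so the number marked is not evidence of an excess. In female FPC hepatocyte library 3 the members' mean log2(CPM + 1) was 8.12, with the other 3 libraries at 9.09 to 9.24. Their share of counts there, without Rn45s, Lars2 and Mir6236, was 4.89%, with the others at 7.72% to 8.21%. That library had the highest length trend of its group (0.28).

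In male FPC hepatocyte library 4, the library with 84.3% Rn45s, Rps12 was at 195 CPM (others 395 to 432) and Rps23 at 135 CPM (others 430 to 480). Library 2 of the same group had Rpl41 at 543 CPM (others 343 to 373). Male chow library 1 had Rps23 at 508 CPM (others 192 to 239), and female chow library 3 had Rps26 at 470 CPM (others 262 to 287).

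Rps27l was at 111 CPM in female FPC hepatocyte library 4, with the others at 40.0 to 42.8 CPM. The pseudogene Rps4l was at 14.3 CPM in female FPC stellate cell library 4, with the others at 1.52 to 3.32 CPM.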

How the results depend on the processing

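The members' medians kept their sign under every alternative run, except in the hepatocyte sex difference on chow, where the median is near 0. DESeq2's test called members where edgeR called 0: 2 in the hepatocyte diet effect of males, 3 in the hepatocyte sex difference on FPC, 13 in the stellate cell diet effect of females, 64 in the stellate cell sex difference on chow and 1 in the stellate cell interaction. Offsets for GC content alone called 7 in the stellate cell sex difference on chow. With offsets for GC content and length, the median was -0.096 for the hepatocyte diet effect of males, -0.54 for the hepatocyte interaction and -0.33 for the stellate cell sex difference on chow, where length offsets alone gave -0.46. With these offsets and the replicate block together the medians were -0.11, -0.50 and -0.34.

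Leaving out single libraries gave 0 to 4 called members in the hepatocyte sex difference on FPC, 0 to 17 in the stellate cell diet effect of females and 0 to 71 in its sex difference on chow. The extremes came from leaving out hepatocyte female FPC 3, stellate cell female FPC 4 and stellate cell female chow 4. In the hepatocyte diet effect of females the median ran from 0.32 to 0.65, the latter without female chow 3. The replicate block alone changed no call, and gave a median of -0.96 in the hepatocyte sex difference on FPC. That is the comparison whose libraries of the same number all had a positive correlation (above).

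Few counts limit the values of Rpl10l, Rpl26, Rpl39l, Rpl3l, Rps27, Rpl30 and Rpl34, and 3 or 4 mice a group limit the rest. The cause of each dependence was not tested. Tested symbols without an annotated length received no offset. Over all 25239 symbols, before the filter on low counts, 873 had no annotated length.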

Other observations

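Near-copies gave the same values as their parents in these counts. Gm5148 was at -0.76 ± 0.17 beside -0.77 ± 0.18 for Rps23 in the stellate cell sex difference on chow, and Rps6-ps4 at -0.49 ± 0.26 beside -0.51 ± 0.26 for Rps6 in the stellate cell diet effect of females. In the hepatocyte diet effect of females Rps6-ps4 was at 0.61 ± 0.39 beside 0.61 ± 0.38. These pairs share sequence, and their values are not independent.

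Rps27l, with 22.4% of its 50-base stretches shared, had the opposite sign to most members in some comparisons, though it passed the test in none of them. In the hepatocyte diet effect of females it was at -0.55 ± 0.35 (edgeR adjusted p = 0.44), where 72 of 77 members were positive, and in the stellate cell diet effect of males at 0.41 ± 0.27 (edgeR adjusted p = 0.999), where 14 of 79 were positive.

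Within hepatocyte female chow libraries Rps23 and Rplp0 ran in different orders. Library 1 was lowest for Rps23 (160 CPM) and second highest for Rplp0 (1763 CPM), and library 4 was highest for Rps23 (476 CPM) and lowest for Rplp0 (1143 CPM).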
